A study of Mus musculus with 18 samples.

Results

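Corin, Rspo1, Rspo2, Rspo3, Rspo4, Crabp1, Inhba, Sostdc1 and Alx4, genes tied to the dermal papilla of the hair follicle and to R-spondin signalling, were followed through bulk RNA of mouse back skin. They were taken by gene symbol, and all 9 were found once each among the 55357 genes of the table. The skin came from FVB mice aged 6 months, each mouse giving 1 library: 6 N-IKKa mice, transgenic for exogenous IKKα in the nucleus of keratinocytes, 6 C-IKKa mice, transgenic for it in the cytoplasm of keratinocytes, and 6 WT mice without a transgene. Chuk encodes IKKα, one of the kinases upstream of NF-kB, and the study asked how its place in the keratinocyte alters skin. The labels name neither the promoter that drives the transgenes nor the number of founder lines. Libraries are named by group and mouse number, N-IKKa 7 to 12, C-IKKa 13 to 18 and WT 1 to 6.

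The dermal papilla is a cluster of specialised fibroblasts at the base of the hair follicle that signals to the epithelial cells above it and directs their growth through the hair cycle. R-spondins are secreted proteins that bind the receptors Lgr4, Lgr5 and Lgr6 together with the ubiquitin ligases Znrf3 and Rnf43. This binding keeps Wnt receptors at the cell surface and so strengthens canonical Wnt signalling, which growing follicles need. Of the other genes, Corin encodes a membrane serine protease used to mark the dermal papilla, Alx4 an aristaless-like homeobox factor of mesenchyme, Crabp1 a protein that binds retinoic acid inside the cell, and Inhba the βA subunit of activin. Sostdc1 encodes a secreted antagonist of BMP signals that also modulates Wnt signals, and it is made in follicle epithelium as well.

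A set of 6 libraries, N-IKKa 8, 9 and 11, C-IKKa 14, and WT 1 and 4, is called growing-hair columns below. They were told apart earlier by hair genes of the same libraries, not by a label, so values are set side by side without a mean, fold or test between them and the other 12. A list of 19 hair shaft and inner root sheath genes had a mean log2 level of 9.71 to 11.8 in the growing-hair columns and 1.54 to 5.27 in the others, the highest of the others being C-IKKa 18. All 6 growing-hair columns were read as female from the Y-linked gene Ddx3y, against 4 female and 8 male libraries among the others. Libraries held 12.0 to 14.6 M counted reads in N-IKKa, 12.6 to 15.7 M in C-IKKa and 11.1 to 12.6 M in WT. Levels are normalized counts, which the authors scaled per library, and 1 read was worth 0.816 to 1.20 of them. Chuk averaged 990 ± 93.3 in N-IKKa, 889 ± 26.3 in C-IKKa and 1007 ± 147 in WT (SD, n = 6 each). Its ranges overlapped, and the labels do not say whether the transgene would be counted under this gene.

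No gene of the set was called between genotypes. Of the 9 genes, 8 passed the filter on low values (a level of at least 10 in at least 6 libraries) and entered the limma fit, in which a gene is called at a Benjamini-Hochberg adjusted p below 0.05 over all 17667 genes tested. None of the 8 was called in N-IKKa against WT, where 0.00566% of all tested genes were called. The same held for C-IKKa against WT, with 0.345% of all tested genes called, and for N-IKKa against C-IKKa, with 0.43%. At an unadjusted p below 0.05 the counts were 2 of 8 in N-IKKa against WT (4.14% of all tested genes), 0 of 8 in C-IKKa against WT (5.73%) and 1 of 8 in N-IKKa against C-IKKa (11.7%). edgeR and DESeq2 on the recovered reads also called none of the 8. No gene of the set separated any pair of genotypes without overlap. Of all tested genes, 0.0849% had every N-IKKa library above every WT library and 0.0396% every one below. The shares were 0.838% and 0.147% for C-IKKa against WT and 0.311% and 0.736% for N-IKKa against C-IKKa.

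The log2 fold changes were positive for 8 of 8 genes in N-IKKa against WT, for 3 of 8 in C-IKKa against WT and for 8 of 8 in N-IKKa against C-IKKa, beside 51.2%, 50% and 50.9% of all tested genes. Their medians were 0.50, −0.06 and 0.92, beside medians of 0.01, 0.00 and 0.01 over all tested genes. The 8 genes include Alx4, which passed the filter only through the growing-hair columns and C-IKKa 18. Without the growing-hair columns, Alx4 turned negative in both N-IKKa comparisons and Rspo3 in N-IKKa against WT, as given below. The counts and medians are therefore descriptions. The comparisons share groups, so they are not independent of each other. The N-IKKa group held 3 growing-hair columns, the C-IKKa group 1 and the WT group 2, and the part of this imbalance in the fold changes was not tested beyond the values given below without those columns. Libraries read as male from Ddx3y numbered 2 of 6 in N-IKKa, 4 of 6 in C-IKKa and 2 of 6 in WT. The part of sex in the fold changes was not tested beyond the values given below with a sex covariate.

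**Figure D1:**
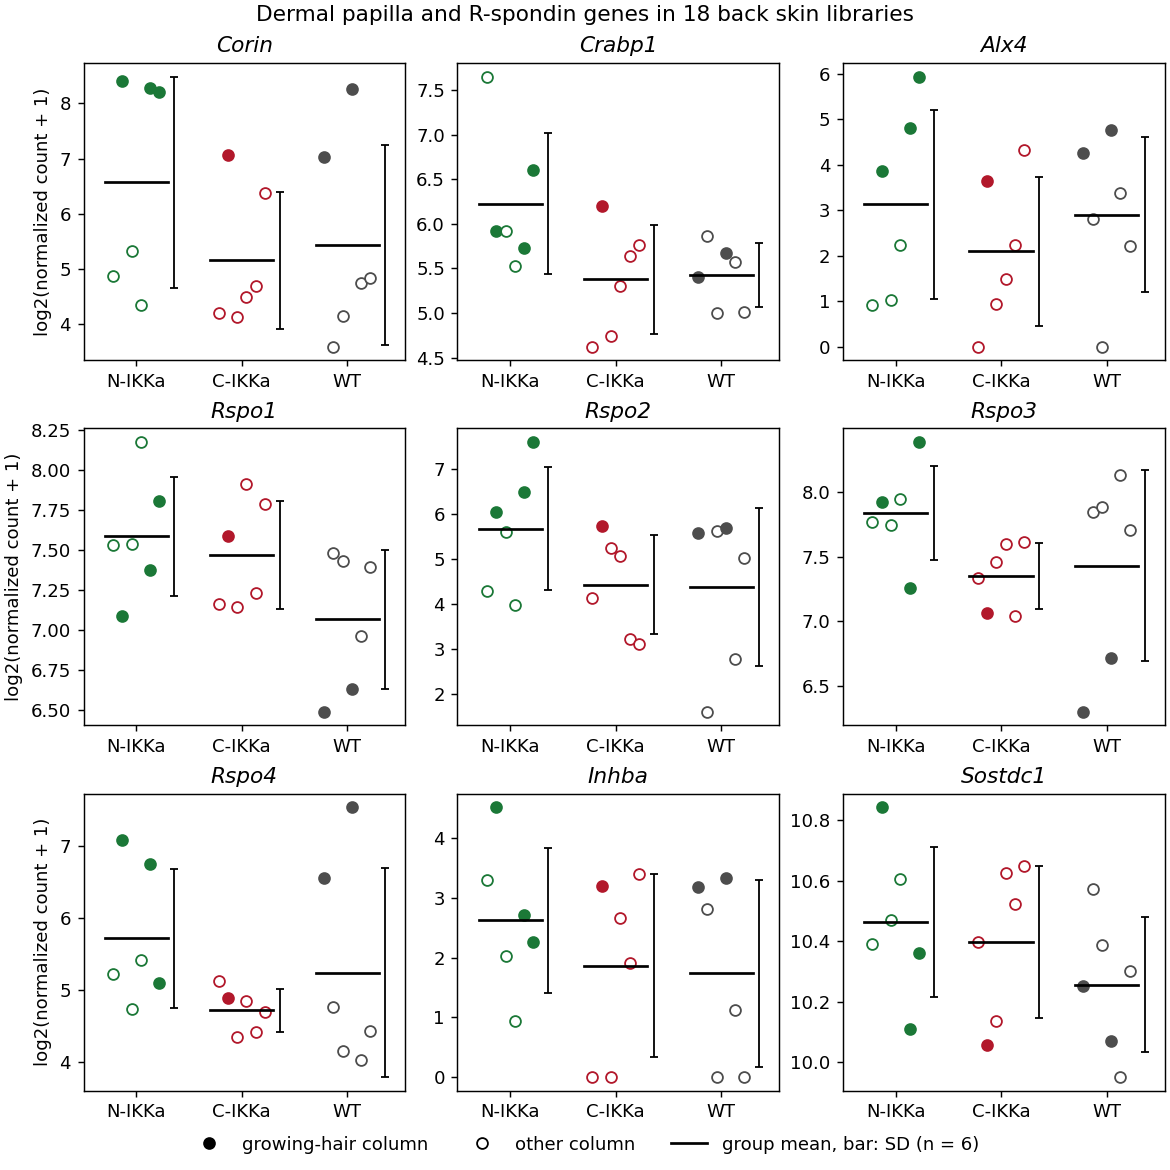
Level of each gene in every library as log2(normalized count + 1), on a separate axis per gene, with filled points for growing-hair columns and open points for the others; lines are group means and bars are SD (n = 6). In the Corin panel the filled points, at 130 to 337 normalized counts, lie above every open point, while the genotype groups overlap in every panel.

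Corin had the clearest split between libraries. In N-IKKa it was at 311, 293 and 337 normalized counts in mice 8, 9 and 11, and at 19.4, 28.2 and 39.0 in mice 7, 10 and 12. In C-IKKa it was at 132 in mouse 14, 81.7 in mouse 18 and 16.5 to 25.0 in the other 4. In WT it was at 130 and 306 in mice 1 and 4, and at 11.1 to 27.7 in the other 4. The 6 growing-hair columns thus all lay above the other 12, which reached 81.7 at most, and in each genotype the columns of the 2 kinds were apart. C-IKKa 18, the highest of the 12, was also the highest of them in the hair shaft list.

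Corin was the only 1 of 7 tested genes, leaving out Alx4, with all 6 growing-hair columns above the other 12, a position held by 8.45% of all tested genes. None of the 7 had all 6 below, as 5.25% of all tested genes did. Alx4 is left out of these counts because the libraries in which it passed the filter are the growing-hair columns and C-IKKa 18. Since this is bulk tissue, fewer cells of a type and less RNA per cell cannot be told apart.

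Between genotypes, Corin spanned 19.4 to 337 with a median of 166 in N-IKKa, 16.5 to 132 with a median of 23.2 in C-IKKa and 11.1 to 306 with a median of 26.7 in WT. The groups overlapped over most of their ranges. The log2 fold change was 1.13 (SE 0.90, limma adjusted p = 0.880) in N-IKKa against WT and −0.28 (SE 0.90, limma adjusted p = 0.989) in C-IKKa against WT. In N-IKKa against C-IKKa it was 1.41 (SE 0.90, limma adjusted p = 0.473). Without the growing-hair columns, which leaves 3 N-IKKa, 5 C-IKKa and 4 WT libraries, the same values were 0.52, 0.45 and 0.07.

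Promoter sequences from RefSeq on the build GRCm38.p6, 250 bases before to 50 after the gene start, were matched for 5 of the 9 genes: Corin, Rspo1, Rspo4, Crabp1 and Inhba. Corin is shown as the gene with the clearest split, with Rspo4 and Rspo1 as a pair of R-spondins that lay at opposite ends in WT 1 and 4. The windows are chr5:72504491-72504790 on the minus strand for Corin, chr2:151842677-151842976 on the plus strand for Rspo4 and chr4:124986180-124986479 on the plus strand for Rspo1. Each is written 5′ to 3′ along the gene, with GC boxes (GGGCGG, or CCGCCC where it lies on the opposite strand) in capitals.
Corin promoter: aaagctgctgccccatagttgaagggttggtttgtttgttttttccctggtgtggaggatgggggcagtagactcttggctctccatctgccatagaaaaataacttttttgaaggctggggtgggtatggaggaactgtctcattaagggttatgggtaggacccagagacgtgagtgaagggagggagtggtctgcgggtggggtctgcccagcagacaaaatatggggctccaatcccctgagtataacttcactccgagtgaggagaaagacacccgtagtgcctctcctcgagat
Rspo4 promoter: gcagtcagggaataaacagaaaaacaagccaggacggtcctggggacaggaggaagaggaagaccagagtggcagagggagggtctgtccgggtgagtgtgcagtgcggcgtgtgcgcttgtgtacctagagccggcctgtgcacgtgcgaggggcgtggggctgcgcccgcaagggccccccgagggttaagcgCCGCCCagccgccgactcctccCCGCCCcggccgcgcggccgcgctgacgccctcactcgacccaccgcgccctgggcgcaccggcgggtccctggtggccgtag
Rspo1 promoter: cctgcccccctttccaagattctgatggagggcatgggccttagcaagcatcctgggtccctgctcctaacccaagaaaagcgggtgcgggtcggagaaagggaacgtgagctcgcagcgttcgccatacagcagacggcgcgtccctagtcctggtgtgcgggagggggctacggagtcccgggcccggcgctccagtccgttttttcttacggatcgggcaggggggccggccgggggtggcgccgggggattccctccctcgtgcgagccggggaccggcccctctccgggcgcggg
The Corin window had a GC content of 51.7% and 5 CpG sites, near the medians of 52.7% and 7 over 32851 promoters of the same length. The Rspo4 window had 71% GC and 31 CpG sites, and the Rspo1 window 69% and 29. The motifs searched, on both strands, were CTTTGTT and CTTTGAT, which are forms of the TCF/LEF motif, the TATA box TATAAA and the GC box GGGCGG. No matches overlapped in these windows. Corin and Rspo1 held none of these letters in their windows. Rspo4 held 2 GC boxes, at −55 and −33 from the start, and Crabp1 held 5. Inhba held CTTTGTT at −228 and TATAAA at −91. Of all promoters, 5.85% held CTTTGTT, 3.73% CTTTGAT, 13.6% TATAAA and 35.7% GGGCGG.

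Alx4, a homeobox gene of facial, limb and dermal mesenchyme, was at 3 reads or fewer in 7 of 18 libraries and reached 64 reads in the highest. With a level of 0, as many as 3 counts remain possible, equal to 2.45 to 3.61 normalized counts across libraries (counting error only). In N-IKKa, Alx4 was at 27.0, 60.6 and 13.6 in mice 8, 9 and 11, and at 0.88 to 3.69 in the other 3. In C-IKKa it was at 19.0 in mouse 18, 11.4 in mouse 14 and 0 to 3.70 in the other 4. In WT it was at 18.1 and 26.3 in mice 1 and 4, and at 0 to 9.35 in the other 4. Of the 6 growing-hair columns, 5 were among the 6 highest libraries, and C-IKKa 18 held the remaining place above C-IKKa 14.

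Alx4 reached 10 normalized counts in 7 of 18 libraries, the 6 growing-hair columns and C-IKKa 18, so it entered the tests through those libraries alone. Its log2 fold change was 0.23 in N-IKKa against WT, with 95% limits of −1.85 to 2.30. It was −0.80 in C-IKKa against WT, with limits of −2.87 to 1.27, and 1.03 in N-IKKa against C-IKKa, with limits of −1.04 to 3.10. As folds, the limits were 0.28 to 4.92, 0.14 to 2.41 and 0.48 to 8.57 in the same order. Each interval is wide enough to hold a change of more than 2-fold in either direction. Without the growing-hair columns, the fold changes in N-IKKa against WT and against C-IKKa turned negative, at −0.71 and −0.41 on the log2 scale.

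The 4 R-spondins differed in how widely they spread. Rspo2 and Rspo4 spread widely over the 18 libraries, with SDs of 1.48 and 1.05 on the log2 scale, which exceeded those of 97.1% and 92.5% of tested genes. Rspo1 and Rspo3 had SDs of 0.43 and 0.52, near the middle of all tested genes at the 57.4th and 65.7th percentiles. The closest pair of R-spondins was Rspo1 and Rspo3, with a root mean square difference of 0.42 on the log2 scale after each gene was centred on its own mean.

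Rspo2, an R-spondin gene linked to coat type in dogs, was at 88.5, 192 and 64.7 normalized counts in N-IKKa 8, 9 and 11 and at 14.8, 18.5 and 47.2 in N-IKKa 7, 10 and 12. In C-IKKa it was at 52.2 in mouse 14 and at 7.60 to 36.7 in the other 5. In WT it was at 46.4 and 50.2 in mice 1 and 4, against 47.7, 31.3, 5.84 and 2.02 in mice 3, 6, 5 and 2. Of the 6 growing-hair columns, 5 were among the 6 highest libraries, with WT 3 just above WT 1.

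The groups overlapped in Rspo2, at 14.8 to 192 with a median of 55.9 in N-IKKa, 7.60 to 52.2 with a median of 24.4 in C-IKKa and 2.02 to 50.2 with a median of 38.8 in WT. The log2 fold change was 1.29 (SE 0.77, limma adjusted p = 0.880) in N-IKKa against WT and 0.04 (SE 0.77, limma adjusted p = 0.999) in C-IKKa against WT. In N-IKKa against C-IKKa it was 1.25 (SE 0.77, limma adjusted p = 0.467). These are differences of more than 2-fold in the N-IKKa comparisons that stayed within the spread between mice. Leaving out each library in turn gave 0.73 to 1.63 against WT and 0.86 to 1.58 against C-IKKa, so some values fell under 2-fold. Without the growing-hair columns, levels were 14.8 to 47.2 in N-IKKa, 7.60 to 36.7 in C-IKKa and 2.02 to 47.7 in WT. WT 2 held 2 reads, within the 3 counts that a level of 0 allows.

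Rspo4, the R-spondin needed for nail growth in human, was at 106 and 135 normalized counts in N-IKKa 8 and 11, at 33.1 in N-IKKa 9 and at 25.6 to 41.5 in the other 3. In C-IKKa it stayed at 19.3 to 34.0, with mouse 14 at 28.6. In WT it was at 92.7 and 185 in mice 1 and 4, against 15.2 to 26.2 in the other 4. Rspo4 thus was high in 4 of the 6 growing-hair columns, while N-IKKa 9 and C-IKKa 14 lay within the range of the other 12. Those columns had the lowest hair shaft means of the 6, at 9.94 and 9.71. N-IKKa 9 in turn was the highest of all libraries in Rspo2 and Alx4.

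The medians of Rspo4 were 38.8 in N-IKKa, 26.2 in C-IKKa and 23.3 in WT. Its log2 fold change was 0.47 (SE 0.55, limma adjusted p = 0.882) in N-IKKa against WT and −0.52 (SE 0.55, limma adjusted p = 0.985) in C-IKKa against WT. In N-IKKa against C-IKKa it was 0.996 (SE 0.55, limma adjusted p = 0.454). Without the growing-hair columns the value in C-IKKa against WT turned to 0.35, and those of N-IKKa were 0.78 against WT and 0.44 against C-IKKa.

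**Figure D2:**
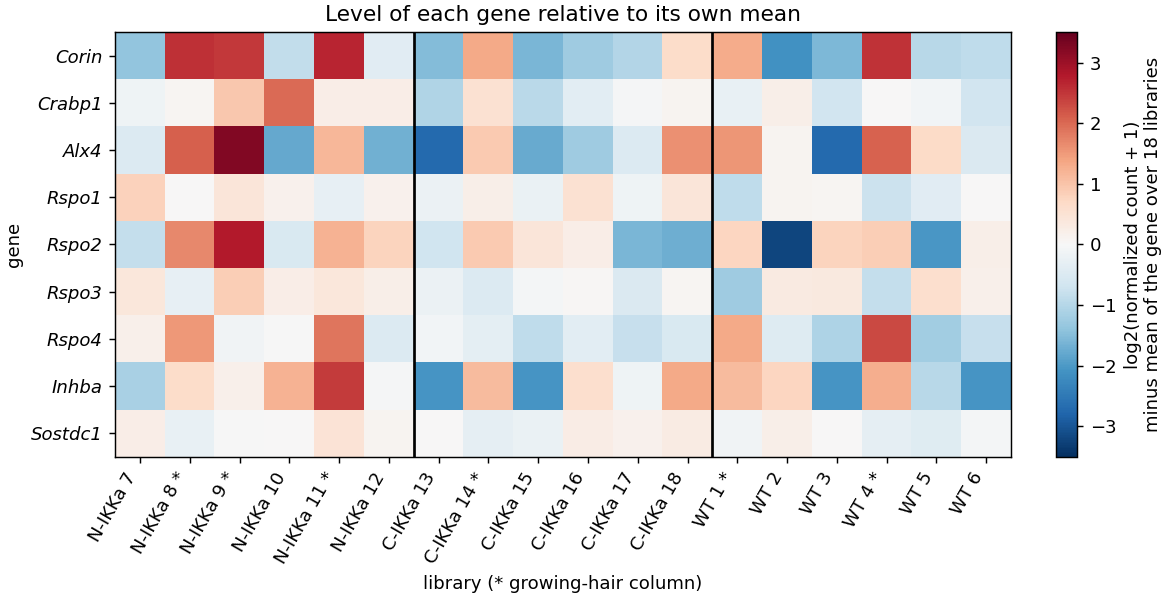
Level of each gene in each library as the difference of log2(normalized count + 1) from the mean of that gene over the 18 libraries; asterisks mark growing-hair columns and vertical lines part N-IKKa, C-IKKa and WT. Corin is above its mean in all 6 marked columns, Rspo4 in 4 of them, and Rspo1 and Rspo3 are lowest in WT 1 and WT 4.

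Rspo1 and Rspo3 showed another order. Rspo1 spanned 135 to 288 normalized counts with a median of 184 in N-IKKa, 140 to 240 with a median of 170 in C-IKKa and 88.7 to 177 with a median of 146 in WT. Its lowest libraries of all were WT 1 at 88.7 and WT 4 at 98.2, the WT growing-hair columns. In N-IKKa and C-IKKa the growing-hair columns overlapped the others, with 165, 222 and 135 in N-IKKa 8, 9 and 11 and 191 in C-IKKa 14. The fold change of Rspo1 on the log2 scale was 0.52 in N-IKKa against WT (SE 0.22, unadjusted p = 0.0267, limma adjusted p = 0.880), and 4 of 6 N-IKKa libraries lay above every WT library. In C-IKKa against WT it was 0.40 (SE 0.22, limma adjusted p = 0.945). The values without the growing-hair columns were 0.43 in N-IKKa against WT and 0.13 in C-IKKa against WT.

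Rspo3, an R-spondin also known for its part in vessel development in mouse, spanned 152 to 335 normalized counts with a median of 230 in N-IKKa, 130 to 195 with a median of 168 in C-IKKa and 77.6 to 280 with a median of 219 in WT. WT 1 at 77.6 and WT 4 at 104 were again the lowest of the 18 libraries, whereas the highest was N-IKKa 9 at 335, also a growing-hair column. The log2 fold change was 0.41 (SE 0.27, limma adjusted p = 0.880) in N-IKKa against WT, and it was −0.08 (SE 0.27, limma adjusted p = 0.989) in C-IKKa against WT. In N-IKKa against C-IKKa it was 0.49 (SE 0.27, limma adjusted p = 0.457). Without the growing-hair columns the value in N-IKKa against WT turned to −0.07, and that in C-IKKa against WT was −0.49 with a limma adjusted p of 0.137, the smallest of any gene of the set in any setting tried. Exons on the opposite strand overlapped 13.1% of the exon length of Rspo3 and 2.72% of that of Corin in the earlier mouse annotation GENCODE M21, and the strand setting of the counts was not given in the sources used here.

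Crabp1 differed from the papilla genes above in which library was high. It was at 200 normalized counts in N-IKKa 10, which is not a growing-hair column, and at 45.2 to 96.5 in the other 5 N-IKKa libraries. It spanned 23.7 to 72.6 with a median of 43.7 in C-IKKa and 31.0 to 57.5 with a median of 44.0 in WT. N-IKKa 10 was low in Corin, at 28.2, and in Alx4, at 0.88. The log2 fold change of Crabp1 was 0.80 in N-IKKa against WT (SE 0.34, unadjusted p = 0.0302, limma adjusted p = 0.880) and 0.85 in N-IKKa against C-IKKa (SE 0.34, unadjusted p = 0.0231, limma adjusted p = 0.396). In C-IKKa against WT it was −0.04 (SE 0.34, limma adjusted p = 0.997). Without N-IKKa 10 the N-IKKa values were 0.52 against WT and 0.56 against C-IKKa.

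Inhba was barely detected. It had 1 to 21 reads per library in N-IKKa, 0 to 10 in C-IKKa and 0 to 8 in WT, and it was listed at 0 in 4 of 18 libraries, C-IKKa 13 and 15 and WT 3 and 6. In normalized counts it spanned 0.92 to 21.9 with a median of 4.69 in N-IKKa, 0 to 9.50 with a median of 4.07 in C-IKKa and 0 to 9.13 with a median of 3.61 in WT. Its highest library was the growing-hair column N-IKKa 11, the only 1 that reached 10.

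Inhba therefore failed the filter and was compared by an exact two-sided permutation test of mean log2 values, whose smallest possible p with 6 against 6 is 0.00216. The difference was 0.88 (exact permutation p = 0.310) in N-IKKa against WT, 0.12 (exact permutation p = 0.883) in C-IKKa against WT and 0.76 (exact permutation p = 0.355) in N-IKKa against C-IKKa. Inhba was at 3 reads or fewer in 8 of 18 libraries and had an SD of 1.42 on the log2 scale over all 18, and the parts of depth and of spread between mice in these p-values were not told apart. In the limma fit without a filter, its adjusted p was 0.852, 1 and 0.668 in the same comparisons.

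Sostdc1 was the most abundant and the steadiest gene of the set. It spanned 1103 to 1837 normalized counts with a median of 1379 in N-IKKa, 1066 to 1606 with a median of 1409 in C-IKKa and 989 to 1524 with a median of 1239 in WT. The highest of all 18 libraries was 1.86 times the lowest, and its SD of 0.24 on the log2 scale was above that of only 30.4% of tested genes. The growing-hair columns held both N-IKKa 11 at 1837, the highest library, and C-IKKa 14 at 1066, the second lowest. The log2 fold change was 0.21 in N-IKKa against WT, with 95% limits of −0.08 to 0.49, 0.14 in C-IKKa against WT, with limits of −0.14 to 0.43, and 0.06 in N-IKKa against C-IKKa, with limits of −0.22 to 0.35.

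**Figure D3:**
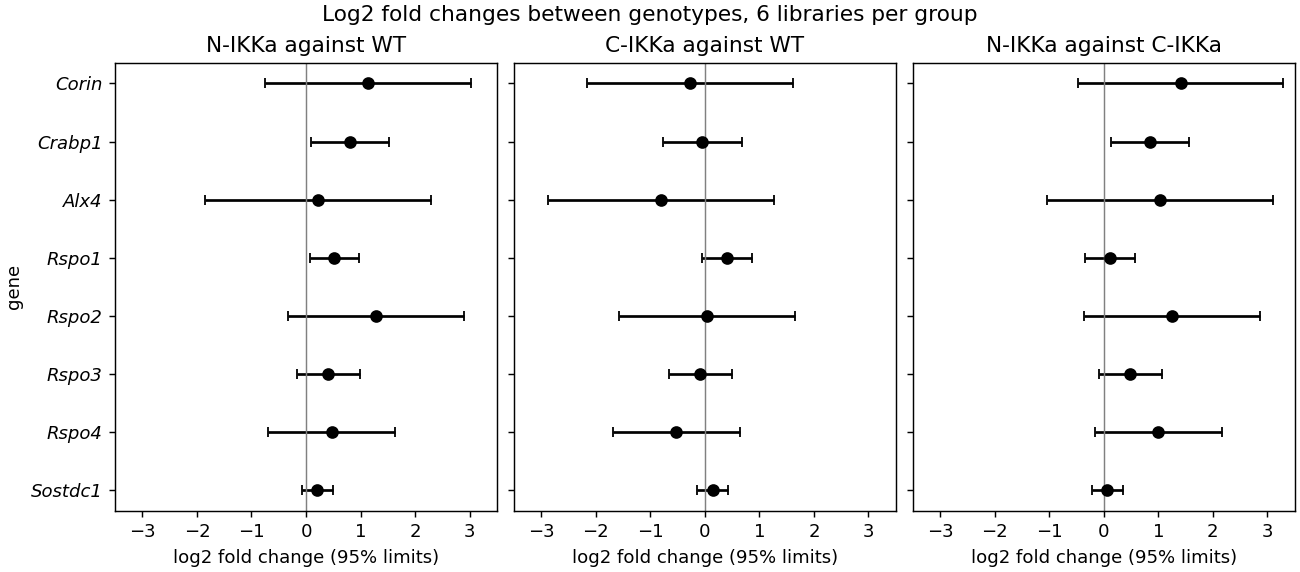
Log2 fold change of each tested gene in N-IKKa against WT, C-IKKa against WT and N-IKKa against C-IKKa (points), with 95% limits from the limma fit (bars); Inhba is left out because it did not pass the filter. Intervals are widest for Alx4, Corin and Rspo2 and narrowest for Sostdc1, and no adjusted p was below 0.396.

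Levels of different genes were compared per kilobase of exon, with exon lengths from GENCODE M21 matched by gene identifier. Sostdc1 averaged 754 ± 127 normalized counts per kilobase over the 18 libraries and exceeded the next gene, Rspo1, in all 18. Rspo1 at 88.5 ± 25.7, Crabp1 at 71.6 ± 49.3 and Rspo3 at 63.4 ± 20.6 followed, with Rspo1 above Crabp1 in 13 libraries and Crabp1 above Rspo3 in 9. These 3 were not apart beyond their spread. Rspo3 was above Rspo4, the next gene, in 16 libraries. Rspo4 at 20.8 ± 20.2 and Corin at 18.9 ± 22.4 normalized counts per kilobase were close in mean and widely spread, with Rspo4 higher in 13 libraries. Rspo2 averaged 8.29 ± 8.60, Alx4 1.63 ± 2.14 and Inhba 0.82 ± 0.85 normalized counts per kilobase. Among the R-spondins, the order of mean level per kilobase was therefore Rspo1, Rspo3, Rspo4 and Rspo2.

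Within genotypes, the growing-hair columns lay above all other columns for 2 of 7 tested genes in N-IKKa (Corin and Rspo2; 26.9% of all tested genes), 3 of 7 in C-IKKa (Corin, Rspo2 and Crabp1; 25.7%) and 2 of 7 in WT (Corin and Rspo4; 23.5%), again leaving out Alx4. Corin alone did so in all 3 genotypes. They lay below all others for 0 of 7 genes in N-IKKa (26.9% of all tested genes), for Sostdc1 in C-IKKa (25.8%) and for Rspo1 and Rspo3 in WT (21.5%). With 1 growing-hair column in C-IKKa, that group gives a single library's position.

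For each gene with an SD over 1 on the log2 scale, the 3 tested genes with the most similar pattern were found by the root mean square difference of centred log2 levels over the 18 libraries. Closest to Corin were Tbc1d30 and Golga7b, each at 0.47, and Nhs at 0.49. Closest to Rspo4 were Tmprss11e at 0.36, Atp2c2 at 0.39 and Mab21l4 at 0.41, all of them nearer than any other gene of the set was. For Alx4 they were Pclo at 0.78, Wdr95 at 0.80 and Gm12387 at 0.84, and for Rspo2 they were Epop at 0.83, Myrf at 0.90 and Mlana at 0.90. For Inhba they were Casc1 at 0.85, Gm36595 at 0.85 and Ptprv at 0.88. Within the set, the closest pair among these genes was Corin and Alx4, at 1.02. All 18 libraries share the contrast between growing-hair and other columns, so these are descriptions of likeness and nothing more.

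Other genes of the same pathways were counted from 8 lists holding 88 genes, of which 87 were in the table and 79 passed the filter. None of the 79 was called in any comparison. An unadjusted p below 0.05 was reached by 5, 5 and 9 in N-IKKa against WT, C-IKKa against WT and N-IKKa against C-IKKa. Over all tested genes, 0.00566%, 0.345% and 0.43% were called, in the same order. At an unadjusted p below 0.05 the shares were 4.14%, 5.73% and 11.7%. The growing-hair columns lay above the other 12 for 20 of the 79 and below them for 7, beside 8.45% and 5.25% of all tested genes. Genes that are high mainly in those columns could pass the filter through them, so these counts are descriptions. The genotypes held unequal numbers of those columns, and their part in the direction counts and medians of the lists was not tested.

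A list of 8 genes held the R-spondin receptors, the ubiquitin ligases Znrf3 and Rnf43, and the receptors Lrp4, Lrp5 and Lrp6. Lgr5, the receptor that marks follicle stem cells, was at 1706 to 2365 normalized counts in the growing-hair columns and 860 to 1520 in the others. Lrp4, a receptor that binds Sostdc1, had the opposite order, at 1253 to 1848 in the growing-hair columns and 2379 to 3330 in the others. Of the 8 genes, 7 had a positive log2 fold change in N-IKKa against WT, 4 in C-IKKa against WT, and 6 did in N-IKKa against C-IKKa, with medians of 0.11, −0.01 and 0.21. Over all tested genes, 51.2%, 50% and 50.9% were positive. Lgr6 had the smallest p of the list, and it averaged 1372 ± 339 in N-IKKa, 2102 ± 239 in C-IKKa and 1321 ± 345 in WT (SD, n = 6 each). The difference was 0.70 on the log2 scale in C-IKKa against WT (SE 0.18, limma adjusted p = 0.166) and −0.65 in N-IKKa against C-IKKa (SE 0.18, limma adjusted p = 0.196). DESeq2 called it in C-IKKa against WT at 0.67 (adjusted p = 0.0436), and so did a limma fit with the hair shaft mean as a covariate, at 0.65 (adjusted p = 0.0163). Over all tested genes, DESeq2 called 136 higher and 15 lower in this comparison, and the fit with the covariate 160 and 11.

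Of 7 tested target genes of canonical Wnt signalling, Lef1, Tcf7 and Nkd2 had all growing-hair columns above the others, as did 8.45% of all tested genes. Lef1, a transcription factor of the pathway, was at 906 to 2524 in the growing-hair columns and 57.3 to 405 in the others. Nkd2, a feedback inhibitor, was at 1109 to 2763 and 508 to 976 in the same columns. Notum, which encodes a secreted enzyme that inactivates Wnt proteins, overlapped, at 10.1 to 29.4 in the growing-hair columns and 0 to 35.2 in the others. All 7 had positive fold changes in N-IKKa against WT, with a median of 0.63 on the log2 scale, against 3 of 7 and a median of −0.03 in C-IKKa against WT. Over all tested genes, 51.2% and 50% were positive in these comparisons. Growing-hair columns numbered 3 in N-IKKa, 1 in C-IKKa and 2 in WT, and their part in these directions was not tested. Apcdd1, a Wnt inhibitor, had the smallest p of the list, with a log2 fold change of 0.32 in N-IKKa against C-IKKa (SE 0.10, unadjusted p = 0.00484, limma adjusted p = 0.273).

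The 19 tested genes of the list of other dermal papilla genes had 6 with all growing-hair columns above: Vcan, Hhip, Prdm1, Pappa, Wnt5a and Scube3. The share of all tested genes in this position was 8.45%. Hhip, a membrane inhibitor of hedgehog signals, was at 218 to 1132 in the growing-hair columns and 52.3 to 196 in the others, and Scube3, a secreted protein, at 414 to 1287 and 50.8 to 281. C-IKKa 18 was the highest of the other 12 in both, as it was in Corin. Median log2 fold changes of the list were 0.39 in N-IKKa against WT, −0.04 in C-IKKa against WT, with 0.32 for N-IKKa against C-IKKa. Sox2 and Fgf7, commonly used papilla markers, were listed at 0 in every library. The dermal papilla name of the set therefore rests on the other markers here. Tchh, one of the 19 hair genes used earlier, was also at 0 in every library. The summed level of those 19 genes reached 232066 in the growing-hair columns. Whether these zeros reflect absent RNA or the way the genes were counted was not tested.

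Wif1, a secreted Wnt antagonist of the same list, overlapped between columns but was highest in C-IKKa. It averaged 391 ± 298 in N-IKKa, 666 ± 206 in C-IKKa and 230 ± 146 in WT (SD, n = 6 each), with ranges of 129 to 870, 290 to 886 and 96.5 to 417. The C-IKKa libraries other than mouse 15 were all above every WT library. The difference was 1.70 on the log2 scale in C-IKKa against WT (SE 0.49, limma adjusted p = 0.301), 0.62 in N-IKKa against WT (SE 0.49, limma adjusted p = 0.880) and −1.07 in N-IKKa against C-IKKa (SE 0.49, limma adjusted p = 0.428). In C-IKKa against WT it was called at 2.05 with sex as a covariate (limma adjusted p = 0.0391), at 1.87 with the hair shaft mean as a covariate (limma adjusted p = 0.00088) and at 2.14 without the growing-hair columns (limma adjusted p = 0.00246). In N-IKKa against C-IKKa it was called at −1.49 with the hair shaft covariate (limma adjusted p = 0.00878) and at −2.01 without the growing-hair columns (limma adjusted p = 0.00928). Over all tested genes, these settings called 65, 160 and 153 genes higher and 0, 11 and 10 lower in C-IKKa against WT. In N-IKKa against C-IKKa the hair shaft covariate called 10 higher and 152 lower, and the fit without those columns 4 and 47.

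**Figure D4:**
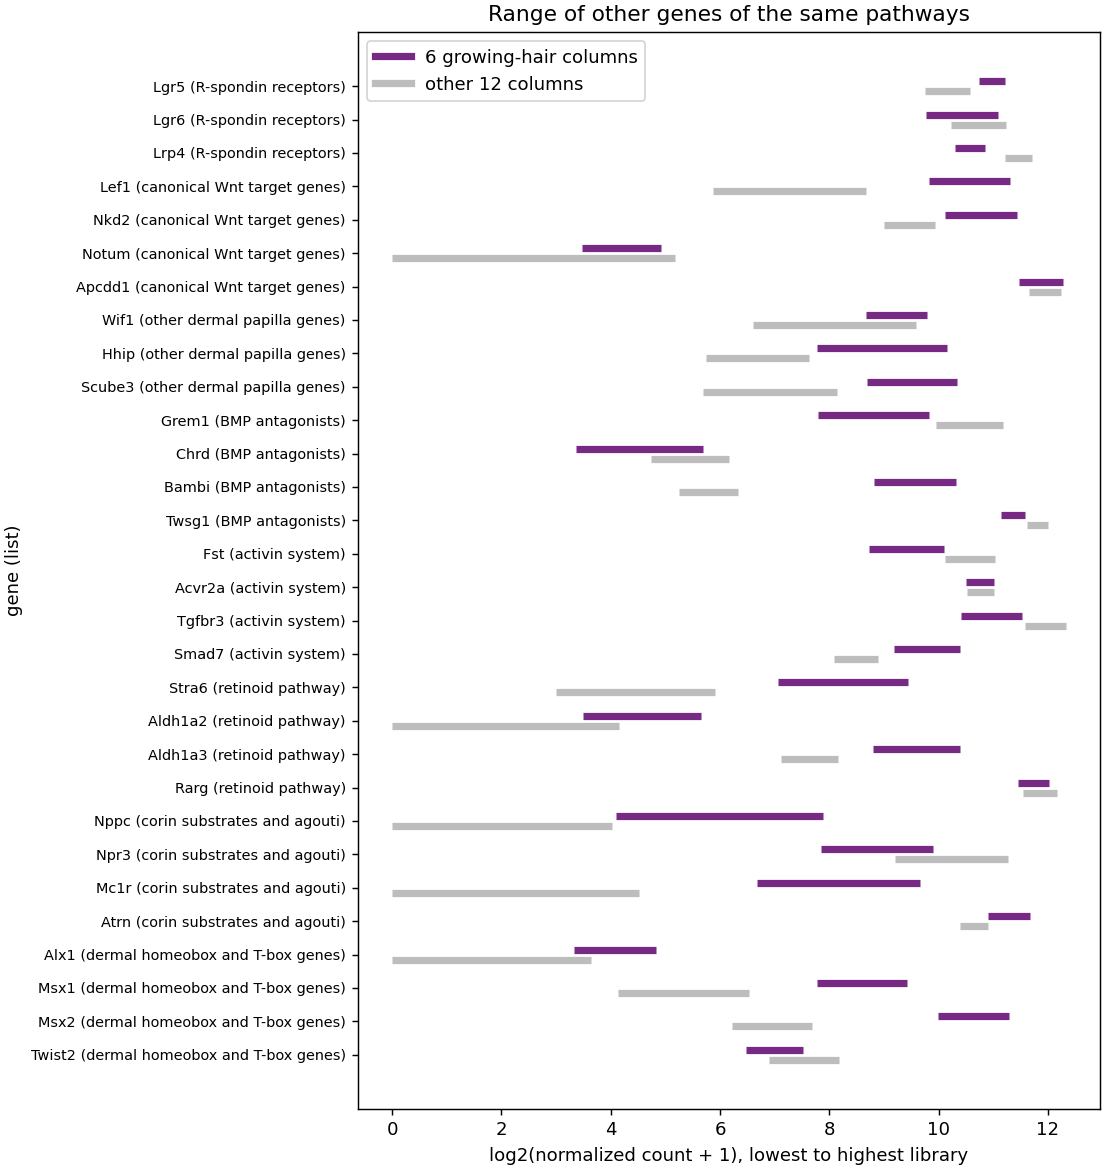
Lowest to highest level, as log2(normalized count + 1), of each pathway gene named by rule, in the 6 growing-hair columns (purple) and the other 12 (grey). Bambi, Msx2, Lef1, Mc1r and Stra6 show gaps between the ranges with the growing-hair columns above, and Grem1, Fst, Lrp4, Twsg1 and Tgfbr3 with them below.

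Of 9 tested BMP antagonists and related genes, the group to which Sostdc1 belongs, 3 had all growing-hair columns below the others and 1 had them above. The shares of all tested genes in these positions were 5.25% and 8.45%. Grem1, a secreted antagonist, was at 221 to 905 in the growing-hair columns and 992 to 2309 in the others. Bambi, a membrane pseudoreceptor and Wnt target, was at 448 to 1281 in the growing-hair columns and 37.0 to 78.9 in the others. Twsg1 and Fst were the other two with the growing-hair columns below. Of the 9, 2 had a positive fold change in N-IKKa against WT, 4 in C-IKKa against WT, and 2 did in N-IKKa against C-IKKa, with medians of −0.30, −0.02 and −0.35 on the log2 scale. Over all tested genes, 51.2%, 50% and 50.9% were positive.

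Of 11 tested genes of the activin system, Fst, which encodes the activin-binding protein follistatin, was at 420 to 1090 in the growing-hair columns and 1114 to 2099 in the others. Tgfbr3, a co-receptor that also binds inhibin, was likewise lower, at 1353 to 2949 and 3053 to 5140. Smad7, an inhibitor of receptor signalling, was at 583 to 1344 in the growing-hair columns and 271 to 474 in the others. Median fold changes of the list were 0.06 in N-IKKa against WT, 0.03 in C-IKKa against WT, with 0.04 for N-IKKa against C-IKKa, on the log2 scale.

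Of 12 tested genes of the retinoid pathway, to which Crabp1 belongs, Stra6, a membrane receptor that takes up retinol, was at 132 to 693 in the growing-hair columns and 7.01 to 58.9 in the others. Aldh1a3, an enzyme that makes retinoic acid, was at 446 to 1334 and 138 to 286 in the same columns. Aldh1a1, another such enzyme, was at 103 to 236 in the growing-hair columns and 325 to 705 in the others. Aldh1a2, also an enzyme of this reaction, overlapped, at 10.25 to 49.1 in the growing-hair columns and 0 to 16.7 in the others. These enzymes thus did not share 1 order. Crabp1 itself overlapped, at 41.3 to 96.5 in the growing-hair columns and 23.7 to 200 in the others. The list had medians of 0.04 in N-IKKa against WT, 0.09 in C-IKKa against WT, with −0.01 for N-IKKa against C-IKKa, on the log2 scale.

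Corin activates natriuretic peptides by cleavage and modifies the agouti coat colour pathway in mouse. The natriuretic peptide genes Nppa and Nppb did not pass the filter. Nppa was at 0 in 14 libraries and reached 2.02 normalized counts at most. Nppb was at 4.03 to 31.2 in the growing-hair columns and 0 to 3.69 in the others. Of 7 tested genes on these routes, Nppc, Mc1r, Atrn and Furin had all growing-hair columns above, as did 8.45% of all tested genes. Nppc encodes the precursor of C-type natriuretic peptide, which the protease furin cuts, and it was at 16.1 to 234 in the growing-hair columns and 0 to 15.2 in the others. Mc1r, the melanocortin receptor of melanocytes, was at 101 to 802 in the growing-hair columns and 0 to 21.9 in the others. The summed level of 5 melanocyte markers, all detected, ran along with it, at 4083 to 13064 in the growing-hair columns and 338 to 2122 in the others, and the part of melanocyte number in these values was not tested. Asip, the agouti gene, was not found by symbol in the table and so was not analysed here.

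Among 9 tested dermal homeobox and T-box genes, Msx1 and Msx2 had all growing-hair columns above and Prrx1 had them below. The shares of all tested genes in these positions were 8.45% and 5.25%. Msx2, a homeobox factor of hair matrix and mesenchyme, was at 1019 to 2492 in the growing-hair columns and 74.0 to 203 in the others. Alx1, of the same family as Alx4, was at 9.07 to 27.4 in the growing-hair columns and 0 to 11.4 in the others.

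Markers of dividing cells ran along with the growing-hair columns. Their summed level over 5 genes was 4076 to 12111 in the growing-hair columns, 1632 to 3037 in the 4 other female libraries and 1185 to 2161 in the 8 male libraries. The sum of 5 immune genes was 3962 to 10120 in the growing-hair columns, 9160 to 14412 in the other females and 9275 to 13758 in the males. The sum of 6 dermal fibroblast genes followed sex instead, at 28446 to 69806 in the growing-hair columns, which are all female, 44107 to 71728 in the other females and 186252 to 404628 in the males. Basal keratinocyte genes summed to 40361 to 65223 in the growing-hair columns and 59111 to 83869 in the others. In the same columns, Schwann and nerve genes were at 2555 to 5200 and 5088 to 8561, and endothelial genes at 1146 to 2932 and 2200 to 3714. Adipocyte genes were at 4345 to 11755 and 5962 to 14720, and skeletal muscle genes at 12031 to 128426 and 46050 to 153637. By genotype, the dividing-cell sum was 1275 to 12111 in N-IKKa, 1654 to 4076 in C-IKKa and 1185 to 7086 in WT. The fibroblast sum was 30934 to 404628 in N-IKKa, 43868 to 281113 in C-IKKa and 28446 to 367290 in WT, so the genotype groups overlapped in both. No marker of these lists was at 0 in all libraries, and the part of cell composition in the levels of Corin, Alx4, Rspo2 and Rspo4 was not tested.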

How the data were processed

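RNA of 18 back skin samples was measured by stranded mRNA sequencing with paired-end reads, per the labels. Per the submitters' processing notes, featureCounts was used with the build GRCm39. For versions, aligner, strand setting, annotation release and scaling tool, the entry is: not given in the sources used here. As deposited, the signal is a normalized count per gene and library. All values above 0 (100%) were multiples of a library's own step to within 0.01 reads, so reads were recovered by dividing by that step.

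Levels were analysed as log2(normalized count + 1), which understates changes of low genes. Genes at 10 or more in at least 6 libraries were tested with limma 3.58.1 (R 4.3.3, mean-variance trend, 1 fit over 18 libraries), with two-sided p-values adjusted by the Benjamini-Hochberg method and called below 0.05. The 1347 rows without a symbol stayed in. Libraries differed by a chi-square per gene of 5.86 or more, so none were copies. Each library is 1 mouse per the labels.

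The genes, lists and growing-hair columns were chosen with earlier results of these data known. The pathway genes named by rule are the 3 tested genes with the largest SD in each list plus the one with the smallest p. Of these, Chrd, Acvr2a, Rarg, Npr3 and Twist2 are not described above, and in all of them the growing-hair columns overlapped the others. Further genes described (Tcf7, Vcan, Prdm1, Pappa, Wnt5a, Aldh1a1, Furin, Prrx1) were chosen after their values were seen. In all of these the growing-hair columns lay apart from the others, so the genes described lean towards that position. Sex was read from Ddx3y above 500. The alternatives tried were 0.5 or 5 as pseudocount, a filter of 50 or none, scaling by TMM or median of ratios, edgeR 4.0.16 and DESeq2 1.42.0 on recovered reads, the compared groups alone, covariates for sex and for the hair shaft mean, the fit without the growing-hair columns, and each library left out in turn. The model was tested on simulated data. Promoters and exon lengths come from the earlier build GRCm38.p6, matched by gene.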

Additional observations from a re-analysis of the deposited data

How the results depend on the processing

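None of the 8 tested genes was called in any comparison under any alternative tried, and the smallest limma adjusted p was 0.137. No paired analysis was possible because the groups share no replicate numbers (N-IKKa 7 to 12, C-IKKa 13 to 18 and WT 1 to 6). Of the single-gene values under alternatives, 724 kept their direction and 41 turned it, all of them uncalled. In C-IKKa against WT, Corin turned to a log2 fold change of 0.43 with a sex covariate, 0.078 with the hair shaft covariate and 0.45 without the growing-hair columns. In the same comparison Rspo2 turned to −0.061 with a pseudocount of 5, −0.24 by edgeR and −0.25 by DESeq2, Crabp1 to 0.030 by edgeR, 0.027 by DESeq2 and 0.21 with a sex covariate, Alx4 to 0.062 with a sex covariate, and Rspo4 to 0.35 without the growing-hair columns. Alx4 turned in N-IKKa against WT to −0.23 with the hair shaft covariate and −0.71 without the growing-hair columns, and to −0.41 in N-IKKa against C-IKKa without them. Rspo3 turned to −0.074 in N-IKKa against WT without them. Leaving out each library in turn gave ranges that crossed 0 for Alx4 in N-IKKa against WT (−0.35 to 0.67), for Rspo1 (−0.0034 to 0.21) and Sostdc1 (−0.011 to 0.14) in N-IKKa against C-IKKa, and in C-IKKa against WT for Corin (−0.66 to 0.29), Crabp1 (−0.21 to 0.11), Inhba (−0.23 to 0.49), Rspo2 (−0.51 to 0.30) and Rspo3 (−0.31 to 0.061). The causes were not tested. Pathway genes called in C-IKKa against WT numbered 0 in the limma fit and by edgeR, 1 by DESeq2, 1 with a sex covariate, 2 with the hair shaft covariate and 1 without the growing-hair columns. In N-IKKa against C-IKKa they numbered 1 with the hair shaft covariate and 1 without those columns, against 0 otherwise. Over all tested genes, DESeq2 called 136 higher and 15 lower in C-IKKa against WT and 17 higher and 171 lower in N-IKKa against C-IKKa, where limma called 61 and 0, and 1 and 75. The hair shaft covariate gave 160 higher and 11 lower in C-IKKa against WT, and 10 and 152 in N-IKKa against C-IKKa. With a sex covariate, 65 were called higher and 0 lower in C-IKKa against WT. Without the growing-hair columns the counts were 153 and 10 in that comparison, and 4 and 47 in N-IKKa against C-IKKa. Inhba was at or under the 3 counts that a level of 0 allows in 8 of 18 libraries and Alx4 in 7, and both also spread widely between mice.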
